A study of Homo sapiens with 44 samples.

Results

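The genes described here are 9 regulators of the developing heart, chosen by name: NKX2-5, ISL1, HAND1, HAND2, IRX3, IRX4, IRX5, NR2F1 and NR2F2. They are 9 of the 60499 gene identifiers in the deposited tables, and all 9 had enough counts to be tested among 22955 genes. The symbols were matched to Ensembl identifiers through GENCODE release 29. In that annotation (GRCh38), NKX2-5 (ENSG00000183072) lies on the minus strand of chr5:173232109-173235357. ISL1 (ENSG00000016082) lies on the plus strand of chr5:51383391-51394738. HAND1 (ENSG00000113196) lies on the minus strand of chr5:154474972-154478264. HAND2 (ENSG00000164107) lies on the minus strand of chr4:173524969-173530229. IRX3 (ENSG00000177508) and IRX5 (ENSG00000176842) share a chromosome, at chr16:54283304-54286763 on the minus strand and chr16:54930862-54934485 on the plus strand. IRX4 (ENSG00000113430) lies on the minus strand of chr5:1877413-1887236. NR2F1 (ENSG00000175745) lies on the plus strand of chr5:93583224-93594615, and NR2F2 (ENSG00000185551) on the plus strand of chr15:96325938-96340263.

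RNA was sequenced from 44 culture wells of H1, an established line of human embryonic stem cells, during a directed cardiac differentiation. The 12 groups are pluripotent cells on laminin LN-521 (3 wells) and cells on the 2 laminins LN-521 and LN-221 together at days 0, 1, 3, 14, 20, 30 and 90 (3 wells each) and at days 5, 7, 9 and 11 (5 wells each). CHIR99021, an inhibitor of the kinase GSK3, was given from day 0 and IWP2, an inhibitor of Wnt production, from day 3. Day 0 cells were kept in Nutristem, days 1 to 9 in RPMI 1640 with insulin-free B-27, and days 11 to 90 in RPMI 1640 with CTS B-27. The series text names 3 wells for day 11, whereas 5 are labelled, and all of them enter here. The labels call the wells biological replicates, so p-values describe the spread between wells of this line.

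In the embryo, the heart is built from a first field, which forms much of the left ventricle, and a second field, which adds the right ventricle, the outflow tract and much of the atria. NKX2-5 is a homeodomain factor of cardiac progenitors and cardiomyocytes, and ISL1 is a LIM-homeodomain factor best known from second-field progenitors. HAND1 and HAND2 are basic helix-loop-helix factors, of which HAND1 is known from the left ventricle and extraembryonic mesoderm and HAND2 from the second field and right ventricle. The Iroquois factor IRX4 marks ventricular muscle, IRX3 and IRX5 act in conduction and repolarization, and the nuclear receptors NR2F1 and NR2F2 (COUP-TFI and COUP-TFII) are known for atrial identity.

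RefSeq windows running from 250 bases before to 50 bases after a gene start (GRCh38.p14) were found for 6 of the 9 genes, 10 windows in all. NKX2-5, IRX3 and IRX5 had no entry. NR2F1 was among the first of the genes to change, ISL1 and HAND1 followed at day 3, and HAND2 was highest at the end. For these 4 genes the 150 bases from 210 to 61 bases before the RefSeq start are shown 5′ to 3′ on the gene's strand, with any match to the motifs named next in capitals. The pieces are chr5:51383238-51383387 (plus strand), chr5:154478288-154478437 (minus), chr4:173530290-173530439 (minus) and chr5:93583012-93583161 (plus).
ISL1: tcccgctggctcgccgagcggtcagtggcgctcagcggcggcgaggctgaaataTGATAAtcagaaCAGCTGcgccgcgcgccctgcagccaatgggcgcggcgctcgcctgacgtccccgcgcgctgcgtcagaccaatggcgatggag
HAND1: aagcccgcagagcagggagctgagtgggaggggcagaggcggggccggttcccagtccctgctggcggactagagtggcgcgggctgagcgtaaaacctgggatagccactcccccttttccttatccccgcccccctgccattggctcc
HAND2: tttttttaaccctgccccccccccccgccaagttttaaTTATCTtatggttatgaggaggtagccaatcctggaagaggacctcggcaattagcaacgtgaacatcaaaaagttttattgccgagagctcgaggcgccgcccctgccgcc
NR2F1: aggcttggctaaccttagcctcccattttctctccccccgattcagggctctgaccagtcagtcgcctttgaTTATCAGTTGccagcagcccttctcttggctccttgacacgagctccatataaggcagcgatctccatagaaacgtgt
The motifs were searched on both strands of the whole 300-base windows. They were the GATA site (AGATAA or TGATAA), the NK2 site (CAAGTG or TAAGTG), the E-box (CANNTG), the T-box site (GGTGTG) and the TATA box (TATAAA). Every match to CAAGTG is also an E-box match. A GATA site was found in 3 of the 10 windows, those of ISL1, HAND2 and 1 of NR2F1, and in 16.3% of the 35116 windows of all genes. In ISL1 it stood 156 and 31 bases before the start, in HAND2 222 and 172 bases before it, and in NR2F1 138 bases before it, where it overlaps the E-box CAGTTG. An E-box was found in 9 of the 10 windows, against 68.7% of all windows, and HAND1 was the gene without one. The 10 windows come from 6 genes and are not independent. The IRX4 windows chr5:1886896-1887195 and chr5:1887130-1887429 overlap, and the same CAGGTG match is counted in both. The NK2 site, the T-box site and the TATA box were each found in 1 window, in HAND2, NR2F2 and NR2F1 in turn, against 18.6%, 16.8% and 11.5% of all windows. These matches describe letters in a window and were not tested as binding sites.

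The unit of level is CPM, a gene's counts per 1000000 in its library after scaling between libraries, which serves to compare 1 gene across wells. Total counts ranged from 6937136 to 33498022 per library, and 3 counts, taken as the smallest level a library can show, equal 0.0919 to 0.410 CPM. RNA integrity scores ran from 7.4 to 10. The summed CPM of 5 pluripotency markers was 7104 to 7157 in pluripotent wells and 12.6 to 24.6 at day 90. That of 6 cardiomyocyte markers was 47.4 to 91.1 in pluripotent wells and 15241 to 50755 at day 90. Endoderm markers, those of the tissue that lines the gut and forms the liver, were also present: their sum was 493 to 6190 CPM at day 9 and 163 to 8669 at day 11. In bulk RNA of a well, fewer cells of a type and less RNA per cell cannot be told apart. Day 1 replicate 2 stood apart for 1 set of genes: 19 genes had at most 1 count there and at least 20 in both other day 1 wells, against 3 and 1 genes for replicates 1 and 3, and these 19 include NR2F1 and NR2F2. Neither gene was called between day 1 and its neighbouring days, with or without that well. A gene was called when its adjusted p (edgeR quasi-likelihood test, Benjamini-Hochberg over 22955 genes) lay under 0.05 with a log2 fold change of 1 or more in size.

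Between day 0 and day 9, the main span of the differentiation, 8 of the 9 regulators were called higher, all but NR2F1. In the background, 17.1% of the genes tested were called higher in this comparison. The median log2 change of the 9 genes was 4.79, against 0.08 over all genes tested. HAND1 (7.79), HAND2 (7.53) and NKX2-5 (7.06) had the 3 largest log2 rises. IRX4 (4.92), IRX3 (4.79), ISL1 (4.34) and IRX5 (3.76) followed, and NR2F2 rose by 2.38, a call lost with limma on TPM. NR2F1 moved from 2.89 ± 0.674 CPM (SD, n = 3) to 7.30 ± 2.95 (n = 5), which is 1.34 on the log2 scale (SE 0.66, adjusted p = 0.0914 by edgeR).

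**Figure D1:**
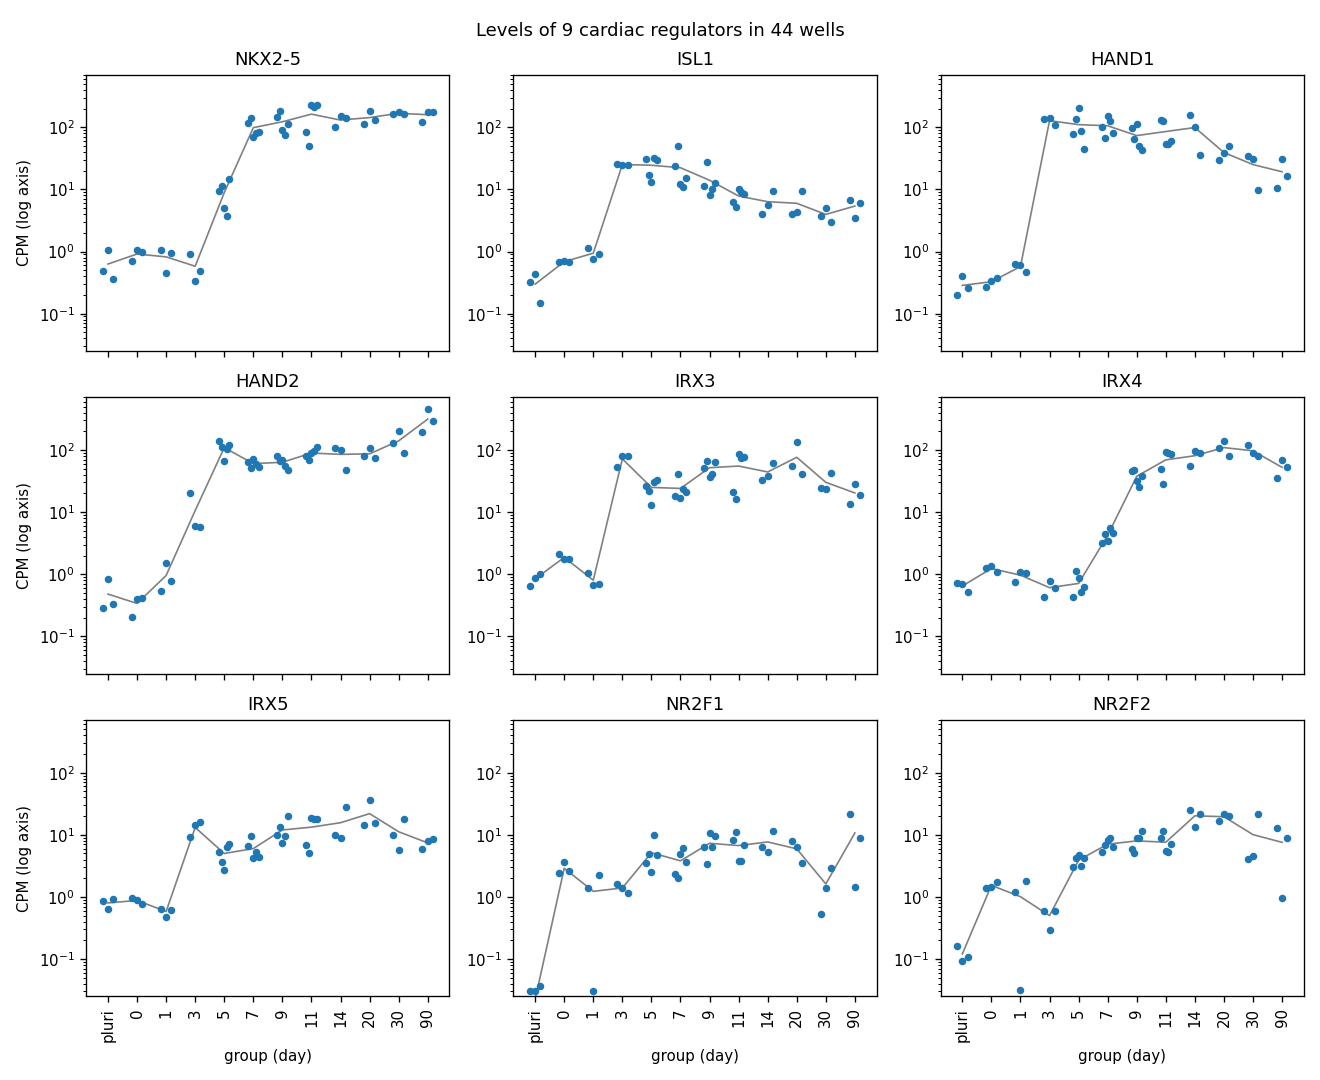
CPM of each gene (vertical log axis) in the 12 groups (horizontal axis, pluripotent cells and then days), with 1 point per well and a line through the group means; values under 0.03 CPM are drawn at 0.03. HAND1, ISL1 and IRX3 step up at day 3, HAND2 and NKX2-5 by days 5 to 7 and IRX4 at days 7 to 9, while NR2F1 and NR2F2 stay at or below 25.4 CPM.

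The genes turned on in an order that was visible well by well. NKX2-5 measured 0.914, 0.335 and 0.49 CPM in the 3 wells of day 3. It measured 9.60, 11.2, 5.05, 3.74 and 14.8 CPM at day 5 and 118, 139, 71.0, 81.0 and 84.6 CPM at day 7. The 3 groups did not overlap. The log2 change was 3.94 from day 3 to day 5 (SE 0.53, adjusted p = 6.5e-07 by edgeR) and 3.47 from day 5 to day 7 (SE 0.36, adjusted p = 7.1e-09 by edgeR). From day 7 on, no step between neighbouring days was called, and the group means ran from 98.7 ± 28.6 CPM (SD, n = 5) at day 7 to 168 ± 5.80 (n = 3) at day 30. The CPM ranges of neighbouring days overlapped from day 7 on, whereas all wells of day 30 lay above all wells of day 7, a comparison that was not tested. In TPM, a level per transcript length, those 2 groups overlapped narrowly (up to 42.86 at day 7 and from 42.83 at day 30). Mean TPM of NKX2-5 was 65.3 ± 20.1 at day 30 and 33.4 ± 10.9 at day 90 (SD, n = 3 each). Between day 9 and day 90 the log2 change of NKX2-5 was 0.38 (SE 0.37, adjusted p = 0.456 by edgeR). In the 9 wells up to day 1, NKX2-5 had 10 to 34 counts, which is 0.0520% to 0.226% of the NKX2-5 counts in all libraries of the same lane; whether reads of other libraries of the lane are among them was not tested.

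ISL1 came earlier. Its level was 1.15, 0.771 and 0.903 CPM at day 1 and 25.8, 24.8 and 24.9 CPM at day 3, a log2 change of 4.74 (SE 0.53, adjusted p = 6.9e-09 by edgeR). The groups lay far apart and the 3 wells of day 3 differed by little (SD 0.587 CPM). ISL1 then measured 11.5, 27.6, 8.01, 10.2 and 12.8 CPM at day 9 and 6.72, 3.41 and 6.05 CPM at day 90. All day 90 wells lay below all day 9 wells, with a log2 change of -1.37 (SE 0.42, adjusted p = 0.00897 by edgeR). That call was lost without day 9 replicate 10, the well with 27.6 CPM, or without day 90 replicate 4. Over all alternatives the log2 change lay between -1.58 and -0.97. The balance of NKX2-5 and ISL1 turned over between day 3 and day 9. The log2 ratio of NKX2-5 to ISL1 (TPM, a level per transcript length, plus 0.1) was -4.40 ± 0.565 (SD, n = 3) at day 3, -0.88 ± 0.931 (n = 5) at day 5 and 3.75 ± 0.395 (n = 5) at day 9. NKX2-5 was 0.15 to 0.44 TPM at day 3, so the size of the day 3 ratio depends on the added 0.1. The rise from day 5 to day 9 was 4.63 (exact two-sided permutation p = 0.00794, the smallest that 5 against 5 wells can give; adjusted p = 0.0317 over 8 ratio tests). By day 90 it had risen by a further 1.45 with no overlap of the wells (exact permutation p = 0.0357, the smallest that 3 against 5 wells can give; adjusted p = 0.0714).

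The HAND pair started apart and ended apart, in opposite order. HAND1 measured 0.640, 0.611 and 0.467 CPM at day 1 and 134, 142 and 107 CPM at day 3, a log2 change of 7.79 (SE 0.67, adjusted p = 2.0e-11 by edgeR). HAND2 measured 0.539, 1.54 and 0.778 CPM at day 1, 20.0, 5.92 and 5.85 CPM at day 3 and 140, 112, 66.8, 105 and 120 CPM at day 5. HAND2 thus rose in 2 steps, by 3.46 (SE 0.45, adjusted p = 1.5e-07 by edgeR) and 3.36 (SE 0.39, adjusted p = 4.4e-08 by edgeR) on the log2 scale. The 3 groups of HAND2 wells did not overlap, and neither did the 2 groups of HAND1.

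Late in the culture the 2 genes moved apart. HAND1 measured 97.3, 64.6, 112, 50.5 and 43.2 CPM at day 9 and 10.4, 30.9 and 16.4 CPM at day 90, a log2 change of -1.94 (SE 0.47, adjusted p = 0.000974 by edgeR). HAND2 measured 79.8, 67.6, 67.8, 54.4 and 47.2 CPM at day 9, 129, 201 and 89.7 CPM at day 30 and 194, 459 and 289 CPM at day 90. Every HAND1 well at day 90 lay below every well of day 9, and every HAND2 well at day 90 lay above every well of day 9. The log2 change of HAND2 from day 9 to day 90 was 2.31 (SE 0.33, adjusted p = 4.1e-07 by edgeR). Both changes kept their direction and their call under all 19 alternatives run for each. Marker genes of other cells moved over the same span, in which 11.9% of all genes tested were called higher and 12% lower. All 6 endoderm markers were called lower, with sums of 493 to 6190 CPM at day 9 and 9.50 to 134.5 CPM at day 90. All 6 endothelium markers (CDH5, EGFL7, KDR, PECAM1, TEK and VWF) were called lower too, with a median log2 change of -4.02 and sums of 371 to 589.5 and 54.8 to 211 CPM. Of 7 fibroblast, epicardium and smooth muscle markers, 4 were called higher and 0 lower, with sums of 1626 to 4514 and 2164 to 12628 CPM. Their part in the changes of the 9 genes was not tested. HAND2-AS1, an antisense gene that overlaps HAND2 over 2960 bases, went from 11.2 ± 1.13 CPM (SD, n = 5) at day 9 to 167 ± 96.4 (n = 3) at day 90. The use of strand in counting is not given in the sources used here, so reads in that overlap cannot be told apart.

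As a share of the summed TPM of the 9 genes, HAND1 stood at 55.2% ± 7.32 (SD, n = 3) at day 3 and 3.47% ± 0.918 (n = 3) at day 90. HAND2 went from 4.55% ± 3.31 to 48.0% ± 6.39 between the same days. The log2 ratio of HAND1 to HAND2 was 3.79 ± 0.888 (SD, n = 3) at day 3, 0.10 ± 1.18 (n = 5) at day 5, 0.38 ± 0.394 (n = 5) at day 9, -2.37 ± 0.657 (n = 3) at day 30 and -3.77 ± 0.152 (n = 3) at day 90. From day 5 to day 9 it differed by 0.28 (exact permutation p = 0.635), less than the spread of the day 5 wells. Between days 9 and 90 it fell by 4.14 with no overlap (exact permutation p = 0.0357, the smallest possible; adjusted p = 0.0714 over 8 ratio tests).

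**Figure D2:**
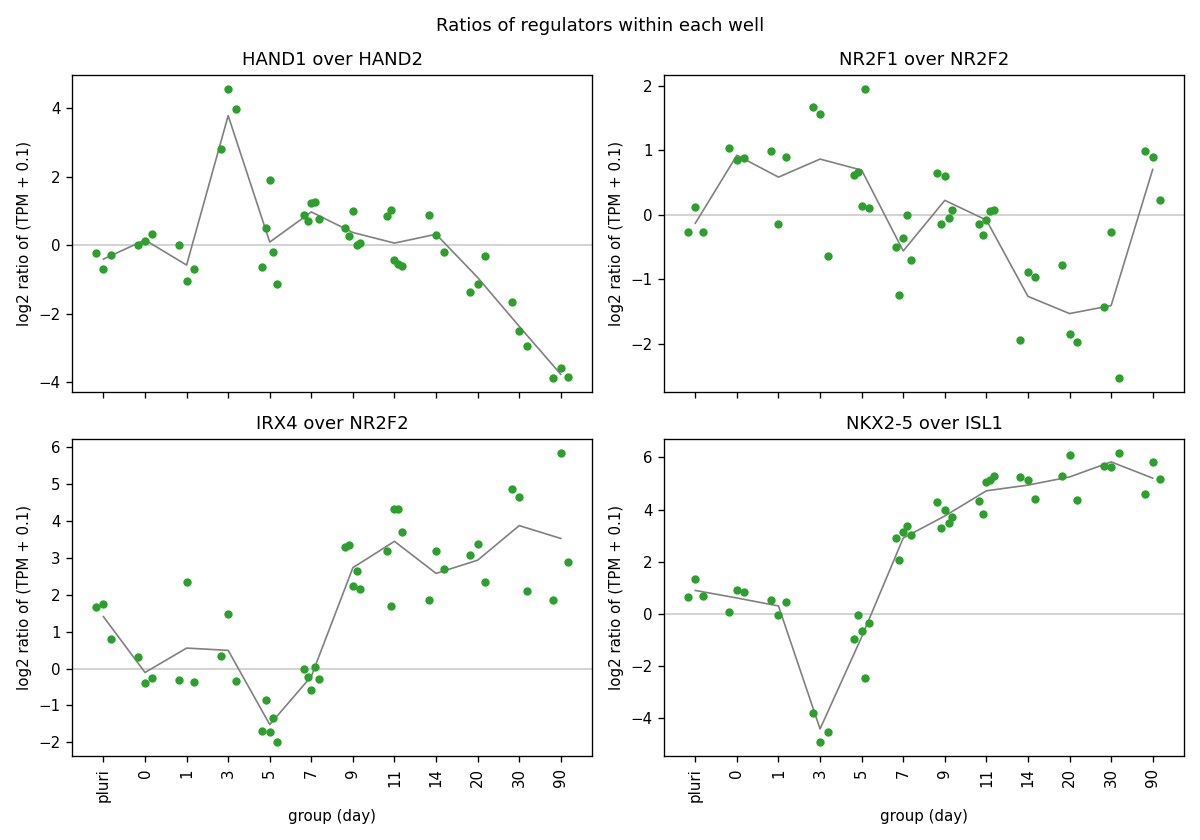
Log2 ratio of the TPM of 2 genes within each well (vertical axis, TPM plus 0.1) by group (horizontal axis), with 1 point per well and a line through the group means. The ratio of HAND1 to HAND2 falls from 3.79 at day 3 to -3.77 at day 90, and that of NKX2-5 to ISL1 climbs from -4.40 to above 5 at days 20 to 90.

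Of the Iroquois genes, IRX3 and IRX5 shared 1 pattern and IRX4 had another. IRX3 measured 1.04, 0.675 and 0.685 CPM at day 1, 54.0, 80.8 and 80.9 CPM at day 3, and 26.6, 22.1, 13.0, 30.0 and 33.1 CPM at day 5. It rose and then fell with no overlap of the groups, by 6.48 (SE 0.59, adjusted p = 7.9e-11 by edgeR) and -1.52 (SE 0.39, adjusted p = 0.005 by edgeR) on the log2 scale. IRX5 measured 0.640, 0.482 and 0.623 CPM at day 1, 9.10, 14.2 and 16.0 CPM at day 3 and 5.34, 3.63, 2.70, 6.35 and 6.99 CPM at day 5. Its log2 changes were 4.48 (SE 0.55, adjusted p = 5.7e-08 by edgeR) and -1.39 (SE 0.40, adjusted p = 0.0132 by edgeR), and its fall was not called without day 3 replicate 2 or without day 3 replicate 3 (highest adjusted p 0.0815 by edgeR). Both genes had their highest later mean at day 20, at 76.2 ± 49.8 CPM (SD, n = 3) for IRX3 and 21.9 ± 12.1 for IRX5. Replicate 2 was the highest of the 3 wells for both genes (133 and 35.8 CPM) and had the fewest counts of all 44 libraries (6937136). The other wells had 54.2 and 41.1 CPM of IRX3 and 15.3 and 14.5 CPM of IRX5. These values lay below the day 11 mean of IRX3 (55.1 CPM) and the day 14 mean of IRX5 (15.6 CPM). The day 20 maximum of both genes thus rests on replicate 2. The group means of the pair correlated with r = 0.976 over the 12 groups, the highest of the 36 pairs of these genes, which is a description of means from the same libraries. By day 90 IRX3 was at 13.7, 28.1 and 19.2 CPM, below every day 9 well (50.5, 66.3, 37.4, 40.9 and 64.2 CPM), with a log2 change of -1.35 (SE 0.43, adjusted p = 0.0104 by edgeR). Without day 90 replicate 2 that call was lost (adjusted p = 0.0619 by edgeR). IRX5 changed by -0.69 (SE 0.42, adjusted p = 0.203 by edgeR).

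IRX4 was the last of the 9 genes to turn on. It measured 0.426, 1.12, 0.856, 0.522 and 0.632 CPM at day 5, 3.18, 4.42, 3.45, 5.50 and 4.60 CPM at day 7, and 46.0, 46.9, 31.1, 25.8 and 38.5 CPM at day 9. The 3 groups did not overlap. The log2 change was 2.57 from day 5 to day 7 (SE 0.31, adjusted p = 1.2e-07 by edgeR) and 3.15 from day 7 to day 9 (SE 0.27, adjusted p = 1.1e-09 by edgeR). Its mean was highest at day 20, where the wells had 108, 141 and 78.9 CPM. The 141 CPM was that of replicate 2, the library with the fewest counts. IRX4 measured 120, 90.8 and 79.5 CPM at day 30 and 36.0, 67.9 and 53.6 CPM at day 90. The day 90 wells overlapped those of day 9 and all lay below those of day 30. The log2 change from day 30 to day 90 was -0.89 (SE 0.32, adjusted p = 0.0742 by edgeR), which was not called. It was called with limma on log2(TPM + 1) and log2(TPM + 0.1) (-1.65 and -1.77), a scale on which the log2 change in that step lies below that on the CPM scale by a median of -0.87 over abundant genes, and without day 90 replicate 4 (-1.09, adjusted p = 0.0481 by edgeR). The change from day 9 to day 90 was 0.48 (SE 0.28, adjusted p = 0.18 by edgeR).

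NR2F1 and NR2F2 were low throughout. In pluripotent cells NR2F1 had 0, 1 and 1 counts, no more than the 3-count floor in any well, and at day 0 it measured 2.42, 3.66 and 2.59 CPM. The day 0 mean is at least 26.9-fold higher, taken against the mean 3-count floor of the pluripotent wells (adjusted p = 0.00055 by edgeR). This bound is for the group means and not for single wells. NR2F2 measured 0.161, 0.0919 and 0.109 CPM in pluripotent wells and 1.41, 1.46 and 1.73 CPM at day 0, a log2 change of 3.64 (SE 0.82, adjusted p = 0.0066 by edgeR). Its pluripotent wells held 3 to 4 counts, at or just above the 3-count floor, so the size of this change rests on few counts. These 2 genes were the only ones of the 9 called between these groups, where 2.73% of all genes tested were called higher. The NR2F2 call was lost without pluripotent replicate 2 (adjusted p = 0.0541 by edgeR) and with limma on TPM, and that of NR2F1 with limma on log2(TPM + 1). The pluripotent and day 0 wells differ in laminin as well as in stage, and these cannot be told apart.

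NR2F2 then rose from 0.596, 0.298 and 0.604 CPM at day 3 to 3.06, 4.23, 4.79, 3.13 and 4.28 CPM at day 5, a log2 change of 2.96 (SE 0.65, adjusted p = 0.00099 by edgeR), and was not called on the TPM scale. Its highest mean was 20.2 ± 6.31 CPM (SD, n = 3) at day 14. NR2F1 measured 0.529, 1.41 and 2.92 CPM at day 30 and 21.8, 1.46 and 8.85 CPM at day 90, so the groups overlapped. Its log2 change of 2.73 (SE 0.76, adjusted p = 0.0195 by edgeR) was lost without day 90 replicate 2, the well with 21.8 CPM, and without day 30 replicate 1, and ranged from 0.38 to 3.55 over the alternatives. The ratio of IRX4, a ventricular factor, to NR2F2, an atrial factor, rose by 4.25 on the log2 scale from day 5 to day 9 (exact permutation p = 0.00794, the smallest possible; adjusted p = 0.0317), from -1.52 ± 0.437 to 2.74 ± 0.568 (SD, n = 5 each). IRX4 was 0.09 to 0.33 TPM at day 5, so the size of this rise depends on the added 0.1. NR2F2 averaged 0.84 TPM at day 5 and 1.40 at day 9, so the rise is mainly that of IRX4. Between days 9 and 90 the ratio of IRX4 to NR2F2 differed by 0.79 (exact permutation p = 0.607), and the 3 wells of day 90 spread over an SD of 2.07. The ratio of NR2F1 to NR2F2 differed by -0.47 between days 5 and 9 and by 0.48 between days 9 and 90 (exact permutation p = 0.183 and 0.179).

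**Figure D3:**
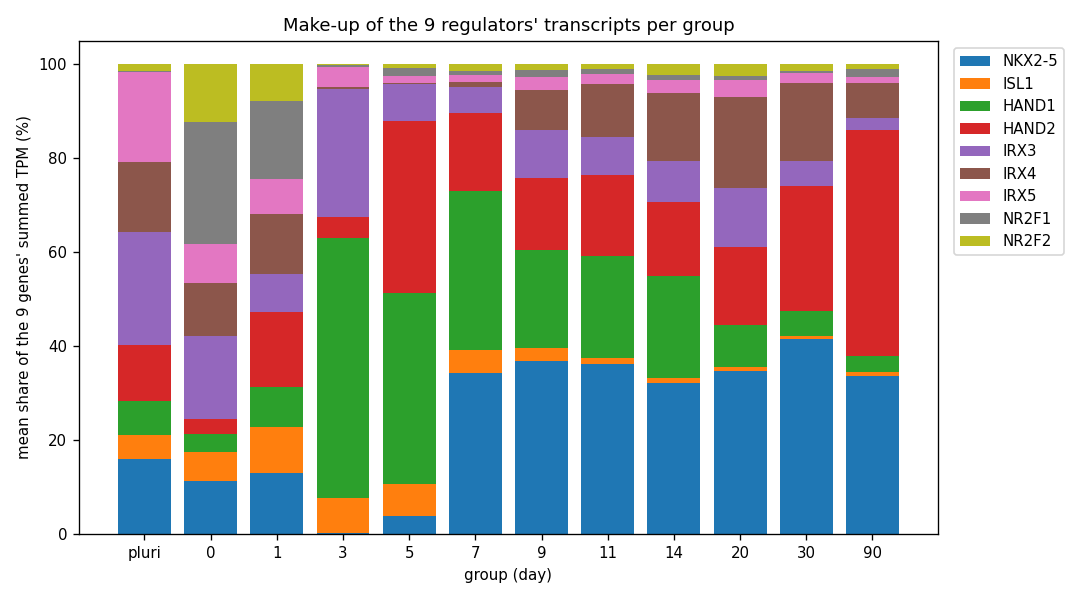
Mean share of each gene in the summed TPM of the 9 genes (vertical axis, percent, stacked to 100) per group (horizontal axis). HAND1 takes 55.2% at day 3 and IRX3 27.2%, NKX2-5 takes 36.9% at day 9 and HAND2 48.0% at day 90; before day 3 the 9 genes together sum to no more than 3.40 TPM in a well.

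Step by step, the calls gathered early. From day 0 to day 1, 0 of the 9 genes were called by edgeR, against 13.5% of all genes tested in either direction; 2 of them (HAND2 and IRX3) had an unadjusted p under 0.05, and DESeq2 called 1 (HAND2). From day 1 to day 3, 5 genes were called higher (ISL1, HAND1, HAND2, IRX3 and IRX5), against 11% of all genes. From day 3 to day 5, NKX2-5, HAND2 and NR2F2 were called higher (3 genes, background 5.75%) and IRX3 and IRX5 lower (2 genes, background 4.34%). The log2 difference of NR2F1 in that step was 1.88 (SE 0.69, adjusted p = 0.0543 by edgeR), and it was called with DESeq2 and in 5 other alternatives. From day 5 to day 7, NKX2-5 and IRX4 were called higher (2 genes, background 2.74%), and from day 7 to day 9 only IRX4 (1 gene, background 1.02%). In that last step the changes of IRX3 and IRX5 were 1.11 (adjusted p = 0.101 by edgeR) and 1.00 (adjusted p = 0.17 by edgeR). IRX3 passed in 6 of the alternatives run.

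After day 9 few steps carried a call. From day 9 to day 11, 0 of the 9 genes were called by edgeR (background 1.63% in either direction), 2 had an unadjusted p under 0.05 (ISL1 and IRX4) and DESeq2 called 0. From day 11 to day 14, 0 genes were called (background 0.697%), 1 had an unadjusted p under 0.05 (NR2F2) and DESeq2 called 0. From day 14 to day 20, 0 genes were called (background 0.0479%), 1 had an unadjusted p under 0.05 (HAND1) and DESeq2 called 0. From day 20 to day 30, 0 genes were called (background 2.02%), 3 had an unadjusted p under 0.05 (IRX3, IRX5 and NR2F1) and DESeq2 called 1 (IRX3). From day 30 to day 90, HAND2 and NR2F1 were called higher (2 genes, background 2.65%). The HAND2 step of 1.16 (SE 0.37, adjusted p = 0.0452 by edgeR) was lost in 9 of 16 alternatives, among them the fit with lane as a term and the fit of only these 2 groups. It was also lost without day 30 replicate 1 or 3 and without day 90 replicate 4 or 5. Over the longer span from day 9 to day 90, which shares its day 9 wells with the span from day 0, HAND2 alone was called higher (1 gene, background 11.9%) and ISL1, HAND1 and IRX3 lower (3 genes, background 12%). The median log2 change of the 9 genes over that span was -0.07, against -0.02 over all genes tested.

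**Figure D4:**
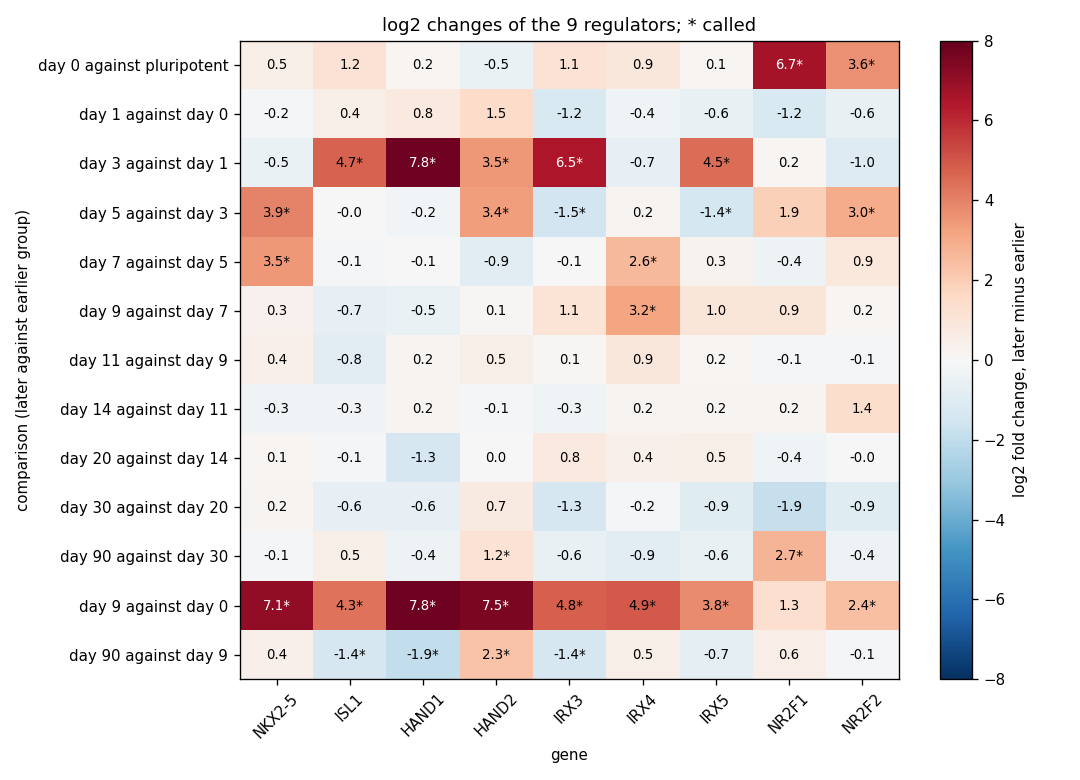
Log2 fold change, later minus earlier group, of each gene (horizontal axis) in the 13 comparisons (vertical axis, 11 steps and then the spans from day 0 to 9 and from day 9 to 90), coloured from blue (lower) to red (higher), with an asterisk where called. The 2 largest single steps are those of HAND1 at day 3 (7.79) and of NR2F1 at day 0 (6.67, from a group at the floor), and no step from day 9 to day 30 carries an asterisk.

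The late groups shifted between scales. Over the 5029 genes averaging 10 TPM or more, the log2 change on the TPM scale lay below that on the CPM scale by a median of -0.87 for day 30 to 90 and -0.57 for day 9 to 90. The shift was 0.57 for day 11 to 14 and -0.39 for day 0 to 9. None of the 29 called changes of the 9 genes turned its direction on the TPM scale, and 24 of them were still called with limma on log2(TPM + 0.1) and 22 with limma on log2(TPM + 1). The 44 libraries ran on 5 sequencing lanes, and with lane as a term in the fit 27 of the 29 were still called, all but HAND2 and NR2F1 from day 30 to day 90.

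Wells of the same day differed for several of the genes. At day 11, replicates 1 and 2 had 85.5 and 50.0 CPM of NKX2-5, 48.9 and 27.9 CPM of IRX4 and 21.2 and 16.1 CPM of IRX3. Replicates 5, 6 and 7 had 232, 215 and 231 CPM of NKX2-5, 94.0, 90.1 and 86.0 CPM of IRX4 and 85.3, 75.3 and 77.6 CPM of IRX3. HAND1 went the other way, with 133 and 127 CPM in replicates 1 and 2 and 52.9, 54.8 and 60.3 CPM in the other wells. By CPM, the 2 sets of wells did not overlap for any of these 4 genes. By TPM they overlapped for IRX4 (20.3 and 9.31 against 13.7 to 16.1 TPM) but not for NKX2-5, IRX3 or HAND1. ISL1 was lower in replicates 1 and 2 by CPM (6.20 and 5.21 against 8.56 to 10.1) but overlapped by TPM. HAND2 was lower there by CPM (80.0 and 70.2 against 88.6 to 112) and higher by TPM (32.3 and 26.5 against 15.3 to 19.9). Endoderm markers (FOXA2, SOX17, HNF4A, TTR, AFP and APOA1; all 6 above 3 counts in every day 11 well) summed to 4565 and 8669 CPM in replicates 1 and 2 and to 163 to 178 CPM in the others. AFP made up most of the 2 high sums (3890 and 7287 CPM), and FOXA2 did not separate the wells (8.78 and 9.92 against 5.56 to 12.8 CPM). Fibroblast, epicardium and smooth muscle markers summed to 2506 and 4828 against 1519 to 2098 CPM, again with no overlap, and DCN among them measured 32.4 and 113.5 against 3.43 to 5.25 CPM. Cardiomyocyte markers summed to 7188 and 4667 against 17578 to 19006 CPM, and the RNA integrity scores were 8.6 and 8.0 against 9.2 to 9.5. Total counts were 18014203 and 19060126 against 23631168 to 31323325. The part of these differences in the levels was not tested. Without these 2 wells, a comparison added after the values were seen, IRX4 was called from day 9 to day 11 (log2 change 1.26, adjusted p = 0.00047 by edgeR) and NR2F2 from day 11 to day 14 (1.79, adjusted p = 0.0324 by edgeR).

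**Figure D5:**
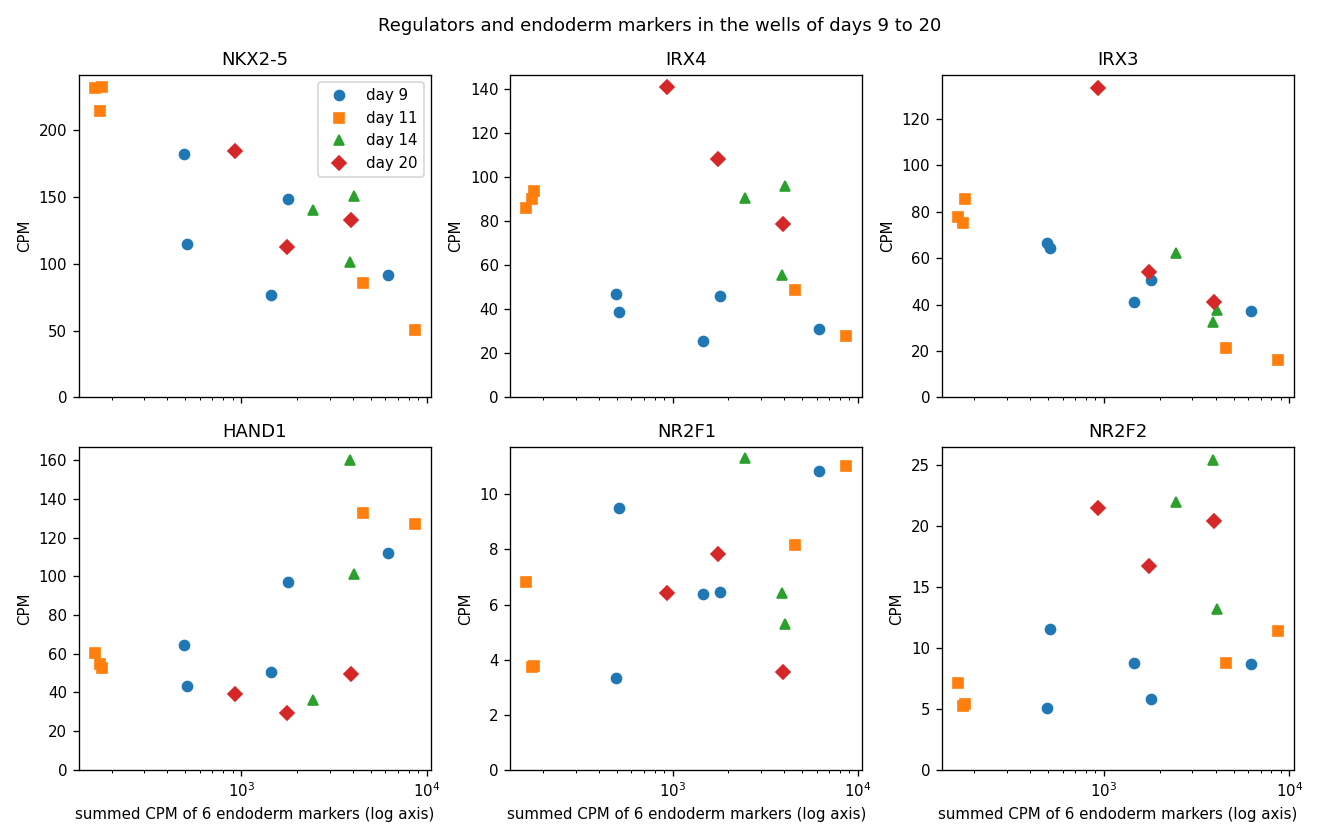
CPM of 6 of the genes (vertical axes, from 0) against the summed CPM of 6 endoderm markers (horizontal log axis) in the wells of days 9, 11, 14 and 20, with 1 point per well and a colour and shape per day. The 2 day 11 wells with 4565 and 8669 CPM of endoderm markers sit at the low end for NKX2-5 and IRX3 and near the high end for HAND1.

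At day 90, replicate 4 stood apart. It had 0.974 CPM of NR2F2 against 12.9 and 8.74, 1.46 CPM of NR2F1 against 21.8 and 8.85, and the highest HAND2 (459 CPM). Its fibroblast, epicardium and smooth muscle markers summed to 2164 CPM against 12628 and 6472, all 7 of them above 3 counts in each well, and its cardiomyocyte markers to 50755 CPM against 15241 and 19759. The members of that cardiomyocyte sum differed. MYH7 averaged 16278 ± 17595 CPM (SD, n = 3) at day 90, a spread larger than its mean. TNNT2 was 3882 CPM in replicate 4 against 2513 and 2970, while MYH6 was lowest there (904 CPM against 1685 and 1879). At day 30, replicate 3 had 21.4 CPM of NR2F2 against 4.11 and 4.61, and the highest sum of the fibroblast group (5897 CPM against 3290 and 2460). It was also highest in the summed endothelium markers (164 CPM against 74.3 and 51.5), PECAM1 among them (20.3 CPM against 1.91 and 2.73), and in the summed endoderm markers (273 CPM against 40.3 and 21.4). The part of these other cells in the levels was not tested.

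Genes around the 9 moved as follows. Of all genes tested, 17.1% were called higher from day 0 to day 9. From day 9 to day 90, 11.9% were called higher and 12% lower. Of 16 relatives, dimer partners and neighbours, 7 were called higher from day 0 to day 9, with a median log2 change of -0.10 over the 16. The 2 with the largest rise were IRX6, another Iroquois gene, from 0.0112 ± 0.0194 to 2.84 ± 1.3 CPM, and NKX2-3, a relative of NKX2-5, from 0.0342 ± 0.035 to 6.62 ± 2.8 CPM (SD, n = 3 and 5); both lay under the 3-count floor at day 0. From day 9 to day 90, 2 of the 16 were called higher, a share close to the background of 11.9%, and 6 lower (median -0.52). The largest falls were of NKX2-3, to 0.0605 ± 0.057 CPM and under the 3-count floor in all 3 wells, and of the LIM-homeodomain gene LHX2, from 2.38 ± 2.4 to 0.142 ± 0.16 CPM. The rises were of the antisense genes HAND2-AS1 (log2 change 3.90) and NR2F1-AS1 (1.69). Of 24 other heart field and cardiac regulators, 20 were called higher from day 0 to day 9 (median 5.49), led by the T-box factors TBX5 (0.169 ± 0.088 to 49.4 ± 15 CPM) and TBX20 (0.587 ± 0.10 to 132 ± 22 CPM). Between days 9 and 90, 5 of the 24 rose, led by SHOX2, a sinoatrial factor (log2 change 5.99), and HEY2, a ventricular factor (2.29), and 8 fell, led by 2 growth factors. FGF8 went from 9.67 ± 3.5 to 0.0336 ± 0.030 CPM, under the 3-count floor in all 3 wells of day 90, and BMP10 fell by 4.18 on the log2 scale.

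Chamber genes give the setting for IRX4 and the NR2F pair. The atrial list shares MYH6 and MYL7 with the cardiomyocyte markers used above, and the ventricular list shares MYH7 with them. Rises of the 2 lists were not tested apart from the general rise of cardiomyocyte markers. The backgrounds are again 17.1% called higher from day 0 to day 9, and 11.9% higher and 12% lower from day 9 to day 90. Of 11 atrial genes, 10 were called higher from day 0 to day 9 (median 5.87), with NPPA, a natriuretic peptide (9.61), and MYH6, the alpha myosin heavy chain (8.72), at the top. Between days 9 and 90, 4 rose, among them PAM (3.52) and the connexin gene GJA5 (2.16), and MYH6 fell (-2.26), with a median of 0.28. Of 11 ventricular genes, 8 were called higher from day 0 to day 9 (median 2.69), led by MYL3 (7.54) and HSPB7 (6.72). In the same span 1 of the 11, GJA1, was called lower (-2.98). From day 9 to day 90, 10 of the 11 rose (median 3.34), led by MYL2, the ventricular myosin light chain, from 0.487 ± 0.35 to 266 ± 49 CPM, and MYH7, the beta myosin heavy chain (log2 change 6.80). Over that span IRX4 and NR2F2 changed by 0.48 and -0.07 on the log2 scale, neither called.

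The genes most like each regulator, by Pearson's r of log2(mean CPM + 1) over the 12 group means among 12053 genes, are given as a description. NKX2-5 was closest to ACTC1, the cardiac alpha actin (r = 0.996), VCAM1, a cell adhesion molecule (0.994), and SGPP2 (0.994). ISL1 was closest to BMPER, a BMP-binding protein (0.991), TMEM185A (0.982) and CFC1, a Nodal co-receptor (0.974). HAND1 was closest to WIPF1 (0.992), PLCE1 (0.980) and the integrin gene ITGA8 (0.976), and HAND2 to SH3RF2 (0.993), KIFAP3 (0.990) and SH3GLB1 (0.990). IRX3 was closest to PAPPA, a protease of IGF-binding proteins (0.974), MAN1A1 (0.971) and SETBP1 (0.959). IRX5 shared MAN1A1 (0.972), followed by KCTD21 (0.971) and CNEP1R1 (0.960). IRX4 was closest to SCUBE3 (0.984), ADPRHL1 (0.982) and FAM13C (0.975), and NR2F2 to ATP1B2 (0.983), EGFR (0.965) and GDF15 (0.963). For NR2F1 the closest was DGAT1 at 0.926, followed by MAF (0.896) and ATP7B (0.875), lower than for any other of the 9 genes.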

How the data were processed

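Total RNA of each well was made into stranded total-RNA libraries and read as 150 bp pairs, per the labels' protocols. Reads were processed with cutadapt, STAR 2.5.2b and RSEM 1.2.31 against hg38, per the submitters' processing notes; the gene annotation and the use of strand are not given in the sources used here. The authors deposited unscaled expected counts, of which 93.84% are whole numbers, and TPM, which are scaled for length and to a fixed sum. They also deposited an RNA integrity score and the sequencing lane of each library. Of the 60499 identifiers, 56769 were found in GENCODE 29 and 3730 were not. All columns were matched to labelled samples by name.

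Expected counts were rounded, filtered with filterByExpr and scaled by TMM in edgeR 4.0.16 (R 4.3.3). All 44 libraries entered a quasi-likelihood fit with a mean for each group, from which 13 contrasts were taken. Genes were called at an adjusted p under 0.05 and a log2 change of at least 1. For 8 ratios, log2 TPM ratios were tested by exact two-sided permutation (scipy 1.17.1). The libraries have no molecular identifiers, so the 3-count floor covers counting error only. Alternatives were RLE scaling, other filters, other sample sets, a replicate block, lane as a term, DESeq2 1.42.0, limma 3.58.1 on log2(TPM + 1) and log2(TPM + 0.1), and leaving out each library.

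The 9 genes and the gene lists were chosen with earlier results of these data known. All 9 are named in every comparison. Beside each, the 3 protein-coding genes most like it were named (mean CPM of at least 10 in a group), and of each list up to 2 called genes with the largest change in each direction. The fit was tested on simulated data of 21615 genes for day 9 against day 0, where 98% of genes changed 4-fold and 95% of those changed 8-fold were called, with 6 unchanged genes called.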

Additional observations from a re-analysis of the deposited data

Results flagged for a closer look

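Of 36 groups of 5 wells examined (9 genes at days 5, 7, 9 and 11), 2 held a well far from the other 4 by Dixon's 95% criterion, which chance meets in about 1 in 20 groups. ISL1 at day 9 was 27.59 CPM in replicate 10, against 8.01 to 12.8 CPM in the other wells. IRX3 at day 7 was 41.11 CPM in replicate 10, against 16.7 to 23.4 CPM. Both were flagged on CPM. By TPM, replicate 10 was not the highest well in either group. It had 4.16 TPM of ISL1 at day 9 against 4.58 in replicate 4. For IRX3 at day 7 it had 5.18 TPM against 7.95 in replicate 4. Replicate 10 also had the highest ISL1 at day 7 (49.4 CPM), and these replicates have the same number at both days and lane 4 in both. At day 7, replicate 10 had the highest sum of the 5 pluripotency markers too (1298 CPM against 834 to 1026). POU5F1 among them was 33.7 CPM against 3.34 to 5.57. Their part in the levels of IRX3 and ISL1 was not tested.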

How the results depend on the processing

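The 29 called changes of the 9 genes were recomputed under 537 alternatives: 507 were still called, 30 were not and 0 turned direction, and 19 of the 29 were called under every alternative run. The number of genes called from pluripotent cells to day 0 (2) was 4 with only the 2 groups fitted, and 0 and 1 with limma on log2(TPM + 1) and log2(TPM + 0.1). From day 0 to day 1 (0) it was 2 with only the 2 groups, and 1 with no low-count filter, with at least 1 CPM in 3 libraries, with lane as a term, with DESeq2 and without the day 14, 20 and 30 libraries. From day 3 to day 5 (5: 3 higher, 2 lower) it was 6 with NR2F1 added higher (DESeq2, both other filters, only the 2 groups, without the day 14, 20 and 30 libraries, or without day 5 replicate 3), and 4 without day 3 replicate 2 or 3 (IRX5 lost, so 1 lower) or with either limma fit (NR2F2 lost). From day 5 to day 7 (2) it was 1 with limma on log2(TPM + 1). From day 7 to day 9 (1) it was 3 with only the 2 groups or without the day 14, 20 and 30 libraries, and 2 with no filter, DESeq2 or the replicate block. From day 9 to 11 and from day 11 to 14 (0 each) it was 1 without day 11 replicates 1 and 2. From day 20 to day 30 (0) it was 1 with the replicate block or DESeq2. From day 30 to day 90 (2) it was 0 with only the 2 groups or lane as a term, and 1 with the replicate block or limma on log2(TPM + 1). In those last 2 fits both rises were lost and the gene called was IRX4, lower (-1.10 and -1.65). With limma on log2(TPM + 0.1) both rises were lost too, and the 2 genes called were IRX3 (-1.54) and IRX4 (-1.77), both lower. From day 0 to day 9 (8) it was 9 with only the 2 groups (NR2F1 added) and 7 with either limma fit (NR2F2 lost). From day 9 to day 90 (4) it was 3 without day 9 replicate 10 or day 90 replicate 4 (ISL1 lost) or without day 90 replicate 2 (IRX3 lost), which left 2 of the 3 lower calls. Leaving out 1 library gave 1 to 2 (pluripotent to day 0), 0 to 1 (days 0 to 1), 1 to 2 (days 7 to 9), 0 to 1 (days 9 to 11), 0 to 1 (days 20 to 30) and 0 to 2 (days 30 to 90). All contrasts were tested with the wells unpaired. Deviations of same-numbered wells from their group means correlated at 0.0546 to 0.454 over the 5 pairs of days 7 and 9. For days 14 and 20 the 2 same-numbered pairs correlated at 0.553 and 0.611, so the wells of that step may not be independent. Each of these pairs also shared a sequencing lane. The replicate 2 libraries were the only 2 under 10000000 counts (8679308 and 6937136), with RNA integrity scores of 7.4 and 8.0. The part of lane, depth and RNA quality in these correlations was not tested. Under the replicate block 27 of the 29 calls held.

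Leaving out 1 library moved the ratio of HAND1 to HAND2 from day 5 to day 9 between -0.025 and 0.73 and that of IRX4 to NR2F2 from day 9 to day 90 between -0.36 (without day 90 replicate 4) and 1.63, both changes of sign in results that passed no test. For days 5 to 9, IRX4 to NR2F2 stayed at 4.10 to 4.42 and NKX2-5 to ISL1 at 4.24 to 4.84, at an adjusted p of 0.0635, the smallest that 4 against 5 wells gave here. The ratios had 0 libraries with under 10000000 counts, so that alternative gives no other value. Levels under 0.0919 to 0.410 CPM (3 counts) were not detectable.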
